A study of Mus musculus with 31 samples.

Results

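The 77 genes described here fell into graded levels with the number of functional Stat5a and Stat5b alleles in mouse mammary gland on the day of birth. They are 77 of the 22609 gene symbols measured. They were chosen by the levels at parturition themselves: a gene was taken when its level at parturition was 10 FPKM or more in wild-type glands, at least 1.5 times the higher of both genotypes with 2 alleles, and when the lower of those was at least 2 times the highest of the genotypes with 0 or 1 allele. FPKM are sequenced fragments counted per length of transcript and per size of the library. Caseins and the other well-known milk protein genes were left out by name (symbols starting with Csn, Wfdc or Muc, and Wap, Expi, Lalba, Glycam1 and Spp1), of which 10 also met the conditions. The steps at parturition are therefore how the genes were chosen, and they are described without a test.

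Mammary tissue without lymph nodes was sequenced as poly(A) RNA in 6 genotypes at 2 stages, 31 samples in all, from mice of a mixed 129SV, FVB/N and C57BL/6 background. Null glands carried floxed Stat5ab alleles removed by the MMTV-Cre transgene, which acts in mammary epithelium, so their stroma kept both genes. B glands kept 1 Stat5b allele (Stat5ab null over Stat5a-) and A glands 1 Stat5a allele (Stat5ab null over Stat5b-). BB glands were Stat5a-/- with 2 Stat5b alleles, and AB glands were Stat5ab+/null with 1 allele of each gene. In B, A, BB and AB the alleles were missing from all cells of the mouse. AABB glands were wild type with 4 alleles, a name the study also gives to floxed mice without Cre. The labels list 3 samples per genotype on day 6 of pregnancy, and at parturition, within 12 hours of delivery, 3 for B and 2 for each other genotype. In the extraction protocol 2 mice per genotype are named, so whether each of 3 samples is a separate mouse is not known. Each table holds 1 column per genotype, the authors' mean over those samples, so the spread between mice cannot be seen, and no SD or p-value stands beside any value.

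Prolactin, acting through its receptor and the kinase JAK2, activates STAT5A and STAT5B in the milk-secreting (luminal) cells of the alveoli. These factors then bind DNA and switch on milk genes, and without them alveoli do not form properly. An alveolar cell at parturition makes lactose in its Golgi, wraps lipid droplets in membrane, moves calcium, phosphate, zinc, vitamins and antibodies into milk, and runs a large secretory apparatus. In task groups set after seeing the values, 61 of the 77 genes were placed and 16 were not. Of the gene lists by task used below, 25 members are on at least 1 and 52 are on none.

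Promoter windows of RefSeq (GRCm38.p6, 250 bases before to 50 after a gene's start) were found for 59 of the 77 genes. All 77 were matched in RefSeq, 73 by symbol and 4 by an older name. The STAT consensus TTCNNNGAA stood in the windows of 6 (10.2%), beside 7.90% of expressed and 9.55% of all genes with a window. The same arms TTC and GAA held apart by 4 bases of any kind stood in 6 (10.2%), beside 6.41% and 8.01%. The full nuclear factor I site, TTGGC and GCCAA held apart by 5 bases of any kind and known from milk gene promoters, stood in 1 (1.69%), beside 0.0720% and 0.0444%. That share rests on 1 gene, and 3 of 4164 expressed genes with a window held the site, too few to compare. These shares are descriptions, a match is not a binding site, and no match says only that these letters are not in the window; both strands read alike for all 3 motifs, which were searched with overlaps allowed. The 6 with the STAT consensus were B4galt1, Pigr, Dab2, Orai1, Tgm1 and Pip. The sequences below show how the matches sit in the lactose synthase gene, the calcium channel gene, both genes with 2 matches and the gene with the nuclear factor I match, on the gene's strand 5′ to 3′ with matches in capitals. They are B4galt1 at chr4:40854035-40854123 (minus strand), Orai1 at chr5:123014827-123014915 (plus), Pip at chr6:41847369-41847548 (plus), Tgm1 at chr14:55713508-55713705 (minus) and 1810065E05Rik at chr11:58420979-58421073 (plus).
B4galt1: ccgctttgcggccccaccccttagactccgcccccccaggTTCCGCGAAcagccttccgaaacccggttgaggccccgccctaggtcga
Orai1: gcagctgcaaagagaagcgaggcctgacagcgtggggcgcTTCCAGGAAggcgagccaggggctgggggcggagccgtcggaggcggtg
Pip: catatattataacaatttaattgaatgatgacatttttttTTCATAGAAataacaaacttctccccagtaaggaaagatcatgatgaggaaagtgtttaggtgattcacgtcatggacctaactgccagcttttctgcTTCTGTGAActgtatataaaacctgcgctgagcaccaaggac
Tgm1: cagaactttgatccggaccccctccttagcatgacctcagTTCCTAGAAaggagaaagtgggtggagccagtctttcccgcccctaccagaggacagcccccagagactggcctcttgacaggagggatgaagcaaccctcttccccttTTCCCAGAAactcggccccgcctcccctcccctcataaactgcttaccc
1810065E05Rik: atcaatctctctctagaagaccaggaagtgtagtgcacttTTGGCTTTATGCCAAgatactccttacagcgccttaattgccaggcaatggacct

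The matches begin 99 bases before the start of B4galt1, 207 before that of Orai1, 140 and 42 before that of Pip, 173 and 64 before that of Tgm1 and 92 before that of 1810065E05Rik.

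Relative to AABB, the median of the 77 genes at parturition was 4.22% in Null, 5.06% in B, 5.45% in A, 36.2% in BB and 37.8% in AB. Their summed level was 705 FPKM in Null, 1008 in B, 1193 in A, 10331 in BB, 8540 in AB and 35448 in AABB. From the highest 0- or 1-allele column to the lower 2-allele column (the lower step) the median ratio was 4.09. Its range was 2.00 to 58.7 in the 76 genes where it has a denominator. The conditions asked for at least 2 in this step and 1.5 in the upper, and milk genes lower FPKM in AABB, as given below. Which step is larger is therefore not read as a trait of the genes. AABB over the higher of BB and AB (the upper step) had a median of 2.25 and a range of 1.51 to 11.8. In 12 genes the upper step exceeded the lower. Of the 5133 genes (milk genes left out) at 10 FPKM or more in AABB, 1.5% met all conditions, while 8.67% met the condition on the upper step and 2.20% that on the lower.

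**Figure D1:**
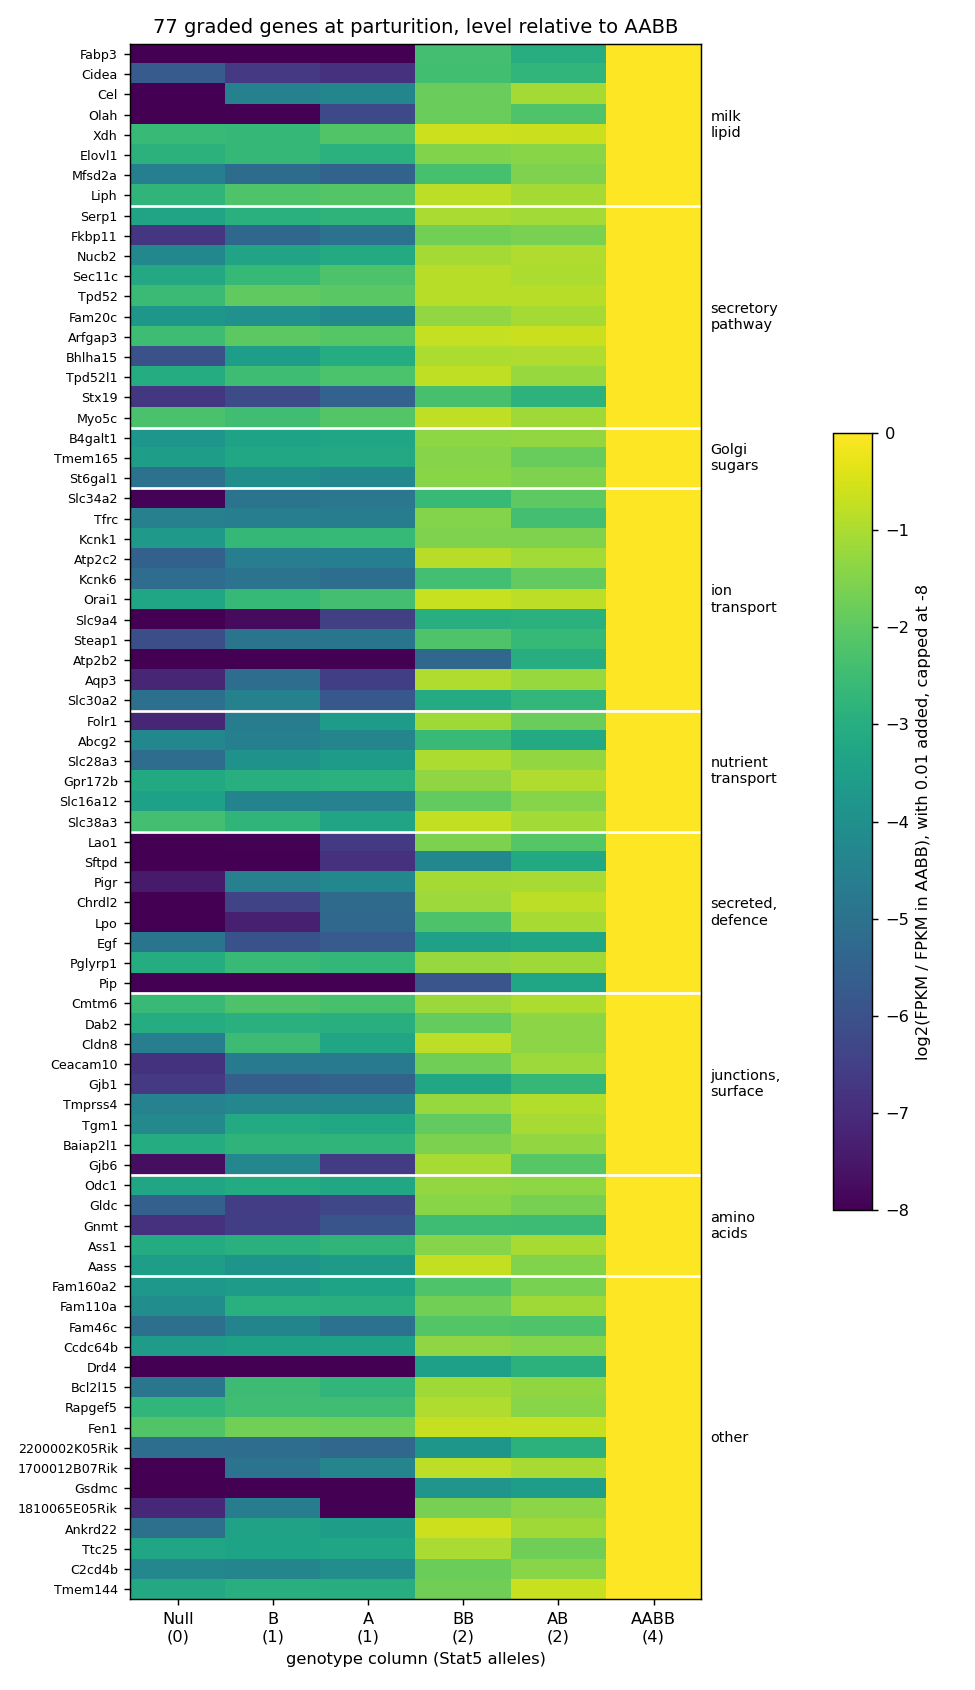
Each row is a graded gene and each column a genotype at parturition, with the number of Stat5 alleles in brackets. Colour gives the log2 ratio of FPKM to AABB (0.01 added, capped at the bottom of the scale). All rows step up from the 3 left columns to BB and AB and again to AABB, most deeply for Fabp3, Atp2b2, Drd4, Gsdmc and Pip.

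Genes just inside and outside the conditions were close in value. At the floor, Tmem144 (11.0 FPKM in AABB), Aass (11.6) and C2cd4b (11.7) were inside, and Plcxd2 (9.91), Mapk4 (9.71) and St6galnac3 (7.73) outside. For the upper step, Ankrd22 (1.51), Xdh (1.52) and Arfgap3 (1.56) were inside, and the glycerol kinase gene Gyk (1.49), Uck2 (1.46) and Tc2n (1.45) outside. For the lower step, Fen1 (2.00), Myo5c (2.01) and Rapgef5 (2.03) were inside, and Ssr2 (1.98) and Ggt1 (1.97) were among those just outside.

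The gland itself differed between columns, and these values stand beside all results that follow. The milk genes left out by name took up 0.732% of all FPKM in Null, 1.60% in B, 4.27% in A, 41.7% in BB, 43.6% in AB and 65.3% in AABB, which lowers the FPKM of other genes in AABB. With the columns scaled on genes present in all of them, 128 genes met the conditions, the 77 among them. Summed over 27 genes, luminal markers were 1829 FPKM in Null, 3194 in B, 3158 in A, 2967 in BB, 2653 in AB and 1711 in AABB, and none was at 0. With the columns scaled these sums were 1644 in Null, 2817 in B, 2851 in A, 2997 in BB, 2825 in AB and 2142 in AABB. The luminal sum was thus highest in B on deposited FPKM and in BB after scaling, and on both scales AABB lay below B, A, BB and AB. With each column divided by the luminal markers outside the set, 92 genes met the conditions, 62 of the 77 among them. Adipocyte markers (18 genes) ran the other way, at 35751, 24797, 26148, 10214, 8522 and 4056 FPKM in Null, B, A, BB, AB and AABB. Fibroblast and matrix markers ranged from 2404 in A to 3311 in Null and were 459 in AABB, skeletal muscle markers ranged from 10.6 in BB to 4907 in Null, and macrophage markers from 190.0 in AABB to 1338 in B. Endothelial markers ranged from 117 in AABB to 443 in Null, and B and T cell markers stayed between 5.23 and 26.3. Basal markers were 1086 in AABB and 1525 to 2957 elsewhere. Hormone-sensing markers were 472 in Null and 94.9 in AABB. In bulk tissue, fewer cells of a type and less RNA per cell cannot be told apart. Stat5a was 7.69, 9.69, 18.1, 4.24, 21.4 and 56.2 FPKM in these columns and Stat5b 8.46, 14.2, 11.4, 12.4, 10.5 and 20.1, so the column labelled B held more Stat5a transcript than BB, the Stat5a knockout.

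**Figure D2:**
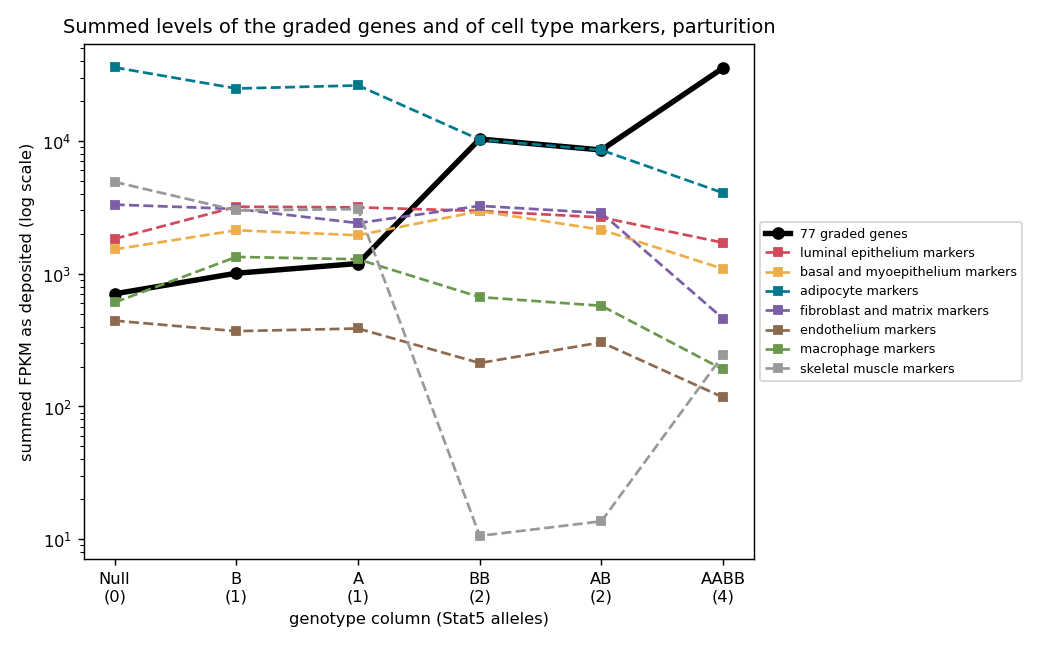
The summed FPKM (log scale) of the 77 graded genes and of 7 marker lists is plotted by genotype at parturition. The graded genes are at 705 FPKM in Null and 35448 in AABB, while luminal markers are highest in B (in BB once the columns are scaled) and adipocyte markers are lowest in AABB.

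In the milk lipid group, the most abundant gene was Fabp3, a fatty acid-binding protein. Fabp3 stood at 24.7 FPKM in Null, 5.36 in B, 20.1 in A, 2229 in BB, 1452 in AB and 11627 in AABB, the largest lower step (58.7). Its order among Null, B and A was that of no allele count, and heart and skeletal muscle also use Fabp3. The muscle markers summed to 4907 FPKM in Null, 2994 in B and 3062 in A, and their part in the low Fabp3 values was not tested. Olah, the thioesterase that cuts medium-chain fatty acids from fatty acid synthase, was 1.22, 2.86, 12.3, 257, 198 and 917 FPKM in Null, B, A, BB, AB and AABB. Cidea, a lipid droplet protein, was 28.1, 14.2, 12.6, 269.7, 216 and 1452 FPKM in the same columns. Olah thus climbed at each allele number, whereas Cidea was higher in Null than in B or A.

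The bile salt-activated lipase gene Cel, whose product digests milk fat in the suckling, had 3.02 FPKM in Null, 40.9 in B, 45.7 in A, 263 in BB, 436 in AB and 925 in AABB. Xdh, the xanthine oxidoreductase of the milk fat globule membrane, had 74.5, 69.3, 98.6, 294, 284 and 446 FPKM. Xdh was among the shallowest members, with 16.7% of its AABB level left in Null. The fatty acid elongase Elovl1 stepped by 2.25 and 2.69, and the lysophospholipid carrier Mfsd2a by 4.61 and 2.94. Liph, a lipase, was among the lowest members in AABB at 14.1 FPKM. The gene lists used from here on were chosen with earlier results of these data known, so their shares are descriptions. Of 41 listed milk fat synthesis genes at 10 FPKM or more in AABB, 3 were members (Olah, Elovl1 and Fabp3), or 7.32% beside 1.5% of all such genes. The upper condition was met by 23, or 56.1% beside 8.67%. Of 18 listed genes of milk fat globule secretion at that level 4 were members (Xdh, Cidea, Folr1 and Abcg2), or 22.2%. None of 21 sterol synthesis genes was a member, beside 1.5% of all such genes, and 21 are too few to show a lack of members. The upper condition was met by 13 of the 21, or 61.9% beside 8.67%. The lower was met by 0, beside 2.20%, where 21 genes are again too few to tell.

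Lactose and sugar chains are made in the Golgi, and 3 members act there. B4galt1, whose promoter is printed above, the galactosyltransferase that forms lactose synthase with alpha-lactalbumin, was 35.6 FPKM in Null, 48.1 in B, 49.4 in A, 193 in BB, 199.8 in AB and 491 in AABB. Tmem165, a Golgi ion transporter needed for glycosylation, was 23.8, 29.1, 30.1, 99.2, 74.5 and 272 FPKM, and the sialyltransferase St6gal1 was 6.89, 13.4, 11.4, 82.3, 76.4 and 223 FPKM. The 3 genes were at 36.5% to 39.3% of AABB in BB, 27.4% to 40.7% in AB and 3.10% to 8.74% in Null. B4galt1 was the only member among 25 listed lactose and glucose genes at 10 FPKM or more in AABB, or 4% beside 1.5% of all such genes.

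The secretory pathway group, set after seeing the values, held 11 members. Serp1, a translocon-associated protein of the endoplasmic reticulum, had 85.7, 114, 124, 427, 399 and 857 FPKM in Null, B, A, BB, AB and AABB. Fkbp11, a prolyl isomerase of the same compartment, had 7.60, 20.6, 26.0, 252, 269.7 and 815 FPKM. Both stepped in order, and Fkbp11 was steeper, at 0.933% of AABB in Null. Bhlha15 (Mist1), a transcription factor of secretory cells, had 0.736, 4.12, 5.79, 24.5, 24.7 and 48.0 FPKM. It was the only member among 25 listed alveolar transcription factors at 10 FPKM or more in AABB, or 4% beside 1.5% of all such genes. Fam20c, the Golgi kinase that phosphorylates caseins, had 9.44, 8.23, 6.99, 52.5, 60.3 and 128 FPKM, flat below 2 alleles.

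Stx19, a syntaxin of membrane fusion, was steep at 0.375, 0.551, 0.879, 7.87, 5.59 and 39.8 FPKM. The signal peptidase subunit Sec11c, the calcium-binding protein Nucb2, the Golgi coat regulator Arfgap3, the exocrine myosin Myo5c and the paralogs Tpd52 and Tpd52l1 were shallow, with upper steps of 1.56 to 1.92. Of 62 listed general secretory genes at 10 FPKM or more in AABB, 2 were members (Sec11c and Fam20c), or 3.23% beside 1.5% of all such genes, and 5 met the upper condition, or 8.06% beside 8.67%.

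The calcium, phosphate, zinc, iron and ion transport group held 11 members. Atp2b2 encodes PMCA2, the apical pump that moves calcium into milk, and had 0.126, 0.0410, 0.0907, 1.23, 6.22 and 50.3 FPKM in Null, B, A, BB, AB and AABB. AABB stood 8.08 times above AB for this gene. Slc34a2, a sodium-phosphate cotransporter, had 2.15, 17.1, 18.5, 88.0, 131 and 521 FPKM. Atp2c2, a calcium pump of the secretory pathway, had 3.33, 6.38, 6.42, 83.2, 70.7 and 152 FPKM. Its steps were 11.0 from 1 to 2 alleles and 1.83 from there to AABB. The zinc transporter Slc30a2 had 0.761, 1.13, 0.433, 2.98, 3.87 and 25.3 FPKM and steps of 2.64 and 6.54.

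Orai1, whose product is the plasma membrane channel of store-operated calcium entry and whose promoter match lies farthest from the start of those printed, had a small upper step, with 9.63, 15.1, 17.8, 58.7, 53.8 and 93.5 FPKM. Tfrc, the transferrin receptor of iron uptake, had 8.09, 7.64, 7.34, 65.6, 35.1 and 185 FPKM. Tfrc was thus level with 0 and 1 allele and higher in BB than in AB. Slc9a4, a sodium-proton exchanger, had 0.242, 0.377, 0.942, 10.8, 11.4 and 85.1 FPKM. The potassium channel Kcnk6 (steps 5.95 and 3.83) was steeper than Kcnk1 (2.14 and 2.89). The water and glycerol channel Aqp3 stepped by 15.1 and 1.96, and the metalloreductase-family gene Steap1 by 4.85 and 4.56.

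The vitamin and nutrient transporters included Abcg2, which exports riboflavin and drugs into milk. Abcg2 had 28.5 FPKM in Null, 23.7 in B, 26.8 in A, 90.2 in BB, 63.7 in AB and 548 in AABB. Its steps were 2.24 and 6.08. Folr1, the folate-binding protein, had 6.12, 34.6, 70.9, 394, 243 and 868 FPKM and climbed at every level. Slc28a3, a nucleoside carrier, had 6.65, 15.6, 19.3, 119, 96.8 and 236 FPKM. Gpr172b, which RefSeq lists as the riboflavin transporter Slc52a2, stepped by 2.95 and 1.93. Slc16a12 and the glutamine carrier Slc38a3 ended the group with 35.6 and 17.1 FPKM in AABB. Of 32 listed transport genes at 10 FPKM or more in AABB, 11 were members, or 34.4% beside 1.5% of all such genes. That list too was chosen with earlier results of these data known, so its share is a description.

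Among secreted and defence proteins, Lao1 was the second most abundant member. Lao1, an amino acid oxidase that makes hydrogen peroxide in mouse milk, had 13.4 FPKM in Null, 38.7 in B, 96.6 in A, 3223 in BB, 2244 in AB and 9581 in AABB. Pigr, the receptor that carries antibodies into milk, had 1.98, 15.0, 17.6, 162, 165 and 342 FPKM. Sftpd, the collectin surfactant protein D, had 1.02, 1.77, 4.92, 29.8, 64.8 and 570.1 FPKM. The lower and upper steps were 23.2 and 2.97 for Lao1, 9.19 and 2.07 for Pigr, and 6.07 and 8.80 for Sftpd.

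Lpo, the lactoperoxidase of milk, had 0.212, 0.435, 1.73, 15.0, 34.1 and 70.0 FPKM in the same order of columns. Chrdl2, an inhibitor of bone morphogenetic proteins, had 0.378, 2.35, 5.08, 85.3, 110.3 and 192 FPKM. Pip, the prolactin-inducible protein, was listed at 0 in Null, B and A and had 0.348 FPKM in BB, 2.20 in AB and 21.3 in AABB, and its promoter holds a pair of STAT matches. No fold against those 3 columns is given. The growth factor gene Egf had 0.917, 0.424, 0.514, 2.53, 2.84 and 27.4 FPKM and steps of 2.75 and 9.67. Egf was the only member among 6 listed serotonin, calcium and hormone genes at 10 FPKM or more in AABB, or 16.7% beside 1.5%. The peptidoglycan-binding protein Pglyrp1 was shallow (2.55 and 2.20). The innate defence list held 4 members (Lpo, Pigr, Lao1 and Xdh) of 21 at 10 FPKM or more in AABB, or 19.0% beside 1.5%. Both lists were chosen with earlier results of these data known, so these shares are descriptions.

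**Figure D3:**
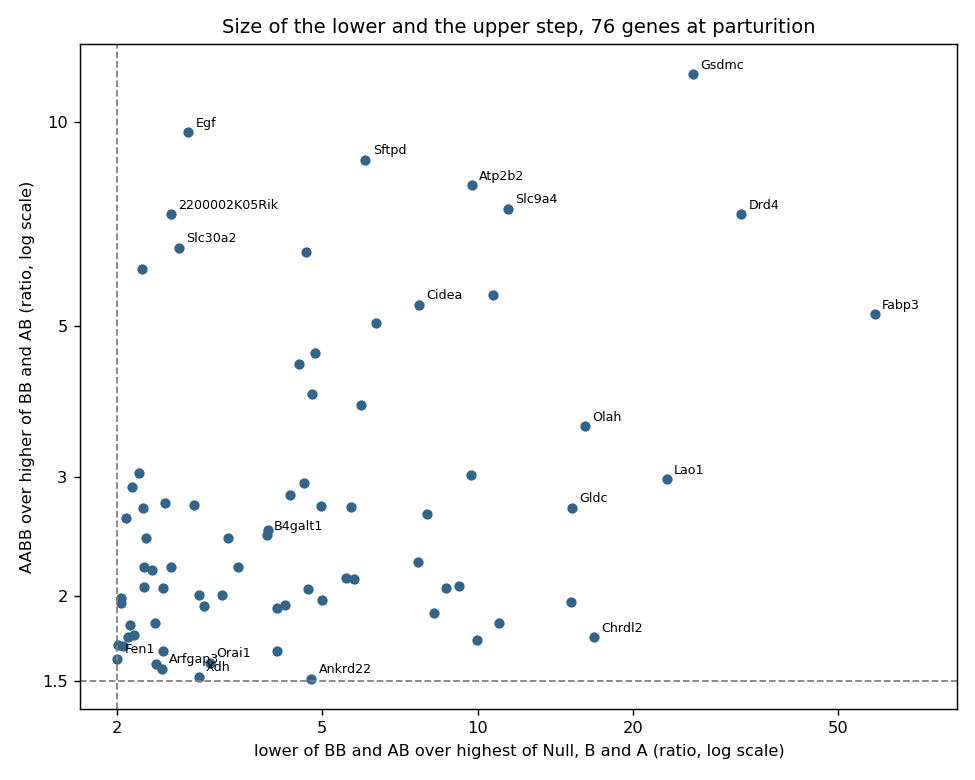
Each point is a graded gene at parturition. The x axis is the ratio of the lower of BB and AB to the highest of Null, B and A, the y axis that of AABB to the higher of BB and AB (both log scale), and dashed lines are the conditions of 2 and 1.5. Fabp3, Lao1 and Olah lie far right, Egf, Slc30a2 and 2200002K05Rik high with a small lower step, and Gsdmc and Drd4 are far along both axes. Pip has no lower ratio and is not drawn.

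The junction and surface group held Cldn8, a tight junction claudin and the only member among the luminal markers, at 5.28, 22.1, 13.1, 71.4, 47.7 and 125 FPKM in Null, B, A, BB, AB and AABB. The gap junction genes Gjb1 and Gjb6 differed in shape. Gjb1 had 0.461, 1.00, 1.09, 5.06, 7.46 and 47.9 FPKM, and Gjb6 had 0.112, 1.27, 0.252, 12.3, 5.98 and 25.2 FPKM. Gjb1 was at 10.6% of AABB in BB and 15.6% in AB. Gjb6 was at 48.8% of AABB in BB and 23.8% in AB. The endocytic adaptor Dab2 (21.6 to 23.4 FPKM with 0 or 1 allele, 48.8 in BB, 68.7 in AB, 179 in AABB), Cmtm6, the protease Tmprss4, the actin regulator Baiap2l1 and Ceacam10 completed it. The transglutaminase gene Tgm1, with a pair of promoter matches like Pip, had 1.56, 3.41, 3.12, 7.71, 14.3 and 29.5 FPKM and so was present in every genotype. Reads of Ceacam10 may be shared with its close relatives, which makes its level uncertain.

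Enzymes of amino acid and polyamine metabolism gave 5 members. Gldc, which breaks down glycine, had 1.73, 0.854, 1.03, 30.2, 26.4 and 81.7 FPKM. Gnmt, which methylates glycine, had 0.489, 0.627, 0.938, 10.4, 10.1 and 58.0 FPKM. Both were low with 0 or 1 allele and close in BB and AB. Odc1, the ornithine decarboxylase that starts polyamine synthesis, was 26.3 to 30.5 FPKM in Null, B and A, 106 in BB, 100.3 in AB and 258 in AABB. Ass1, of arginine synthesis, and Aass, of lysine breakdown, had 13.6 and 11.6 FPKM in AABB.

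The other 16 members fall in no single task. The dopamine receptor gene Drd4 had 0.0989, 0.134, 0.114, 4.33, 6.71 and 49.1 FPKM, and the gasdermin gene Gsdmc had 0.0219, 0.0421, 0.0193, 1.10, 1.34 and 15.8 FPKM. Both were near 0 below 2 alleles, so ratios against those columns rest on very low values, and Gsdmc has near-identical relatives that make its level uncertain. Fam46c (steps 4.51 and 4.40) and 2200002K05Rik (2.55 and 7.32) were also steep at the top. The flap endonuclease Fen1 of DNA replication had the smallest ratio of AABB to the highest 0- or 1-allele column (3.26), at 5.34, 7.41, 7.10, 14.8, 15.0 and 24.2 FPKM. None of the 4 listed cell cycle genes at 10 FPKM or more in AABB was a member, beside 1.5% of all such genes, and 4 are too few to tell. The unnamed gene 1810065E05Rik, with the nuclear factor I match, had 0.0956, 0.586, 0, 4.67, 5.54 and 14.7 FPKM. The rest were Fam160a2, Fam110a, Ccdc64b, Bcl2l15, Rapgef5, 1700012B07Rik, Ankrd22, Ttc25, C2cd4b and Tmem144, with 11.0 to 120.4 FPKM in AABB. None of 22 listed prolactin and STAT5 signalling genes at 10 FPKM or more in AABB was a member. Beside the same 1.5%, a list of this size cannot show a lack of members.

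The conditions do not fix which of AB and BB is higher. AB was above BB in 41 members and below it in 36 on deposited FPKM (34.3% of the 5056 other expressed genes were above), above in 45 and below in 32 on scaled columns, and the median log2 ratio of AB to BB was 0.09 (−0.01 over all 13061 genes compared). Log2 ratios here are of scaled FPKM + 1 and understate differences at low levels. At 2-fold, 4 members were higher in AB, where 1.06% of all genes were, and 0 were lower, where 0.720% were. The 4 were Atp2b2 (6.22 FPKM in AB against 1.23 in BB), Pip (2.20 against 0.348), Lpo (34.1 against 15.0) and Sftpd (64.8 against 29.8). The lowest ratios of AB to BB belonged to Gjb6 (5.98 against 12.3 FPKM), Tfrc (35.1 against 65.6), Aass (4.05 against 6.98), Ttc25 (3.54 against 5.90) and Folr1 (243 against 394). Without replicates these are differences between means of 2 samples each.

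The order of A, B and Null was also free, although all 3 were held low. A was above B in 45 of 77 members (47.4% of the other expressed genes were), with a median log2 ratio of 0.06. In A, 5 members were 2-fold higher than in B, beside 0.360% of all genes, and 0 were lower, beside 0.329%. They were Olah (12.3 FPKM in A against 2.86 in B), Fabp3 (20.1 against 5.36), Lao1 (96.6 against 38.7), Sftpd (4.92 against 1.77) and Folr1 (70.9 against 34.6). The 5 lowest ratios were those of Gjb6 (0.252 FPKM in A against 1.27 in B), Cldn8 (13.1 against 22.1), 1810065E05Rik (0 against 0.586), Slc30a2 (0.433 against 1.13) and Aqp3 (0.437 against 1.13). Some tags of A and B samples have the same number with L or R after it, and nothing in the labels tells if these came from the same mouse.

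Of the 77 members, 55 were higher in both B and A than in Null and 13 were lower in both, while among the 5056 other expressed genes 51.8% were higher in both and 38.7% lower in both. At 2-fold, 12 members were higher in B than in Null (2.71% of all genes) and 1, Fabp3, was lower (2.86%). In A, 16 were higher than in Null (3.49%) and 1, Cidea, was lower (3.17%). The largest gains were those of Cel (log2 ratio 3.32 in B and 3.51 in A), Folr1 (2.28 and 3.32), Slc34a2 (2.46 and 2.59), Pigr (2.35 and 2.61), Olah (2.53 in A) and Lao1 (2.75 in A). The 13 that were higher in Null than in B and A were Fabp3, Cidea, Abcg2, Tfrc, Fam20c, Gldc, Atp2b2, Slc16a12, Mfsd2a, Egf, 2200002K05Rik, Slc38a3 and Aass. Null differs from B and A in allele number and in the way the alleles were removed (Cre in epithelium, against loss in all cells), and both comparisons use the same Null column. Adipocyte markers were 35751 FPKM in Null, against 24797 in B and 26148 in A, and their part in these 13 genes was not tested. Luminal markers were 1829 FPKM in Null, against 3194 in B and 3158 in A. They too were higher in B and A, and their part in the 55 genes was not tested.

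**Figure D4:**
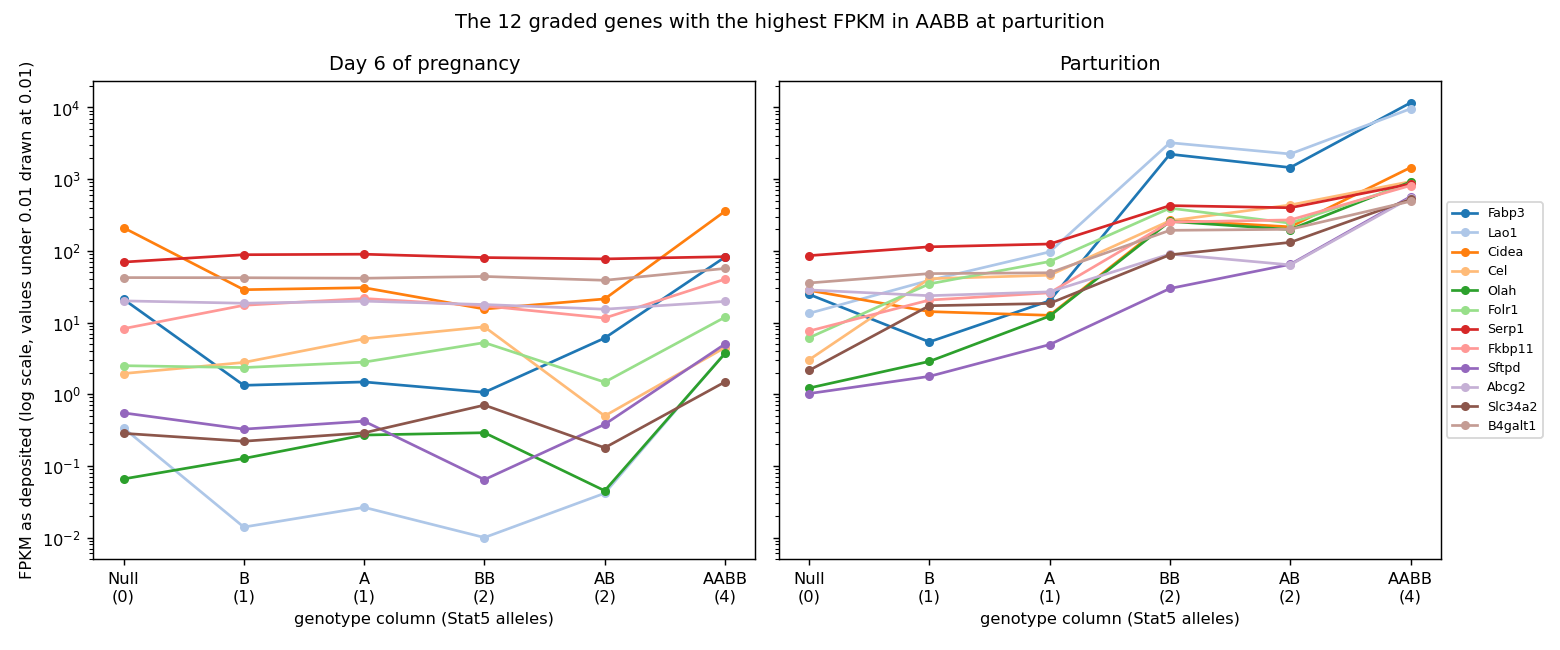
FPKM (log scale) by genotype for the 12 members highest in AABB at parturition, on day 6 of pregnancy (left) and at parturition (right); the tables were normalised separately. At parturition each line steps up at BB and AB and again at AABB. On day 6 Serp1, B4galt1 and Abcg2 are nearly flat, and Lao1, Olah and Sftpd are under 6 FPKM throughout.

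Day 6 of pregnancy gave independent samples that the choice of genes did not use. In AABB glands the members had a median of 71.6 FPKM at parturition against 3.90 on day 6, on tables the authors normalised separately. Their sum on day 6 was 799 FPKM in Null, 721 in B, 727 in A, 661 in BB, 622 in AB and 1304 in AABB. AABB was thus highest, and the 2-allele columns did not lie above the 0- and 1-allele ones. Luminal markers on day 6 summed to 1992 FPKM in Null, 1741 in B, 1583 in A, 1637 in BB, 1091 in AB and 2629 in AABB, so they too were highest in AABB, and their part in the day 6 results was not tested. Of the 77 genes, 49 reached 1 FPKM in at least 2 of 6 columns, all 49 also when AABB is not counted, and 28 did not. Among the 28 were Lao1, Olah, Sftpd, Slc34a2, Pigr, Lpo, Bhlha15, Egf and Atp2b2. In AABB these 9 genes ranged from 0.0605 FPKM (Atp2b2) to 5.01 FPKM (Sftpd). Pip was listed at 0 in all 6 columns.

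Applied to day 6, the upper condition (AABB at least 1.5 times both BB and AB) held for 21 of the 49, beside 18.7% of all 13367 genes compared. The lower condition held for 0 of the 49, beside 0.284% of all genes, and at that share 49 genes are too few to show a lack. In 28 of the 49 AABB was the highest column, beside 29.6%, and in 4 (Odc1, Cmtm6, Orai1 and Slc38a3) BB and AB were both above Null, B and A, beside 10.3%. Against AABB, 10 of the 49 were 2-fold lower in Null (2.09% of all genes), 10 in B (5.18%), 10 in A (5.53%), 11 in BB (3.60%) and 12 in AB (5.00%). These comparisons share the AABB column. In the other direction, Dab2 was 2-fold higher in B (7.53% of all genes), A (7.0%), BB (5.11%) and AB (6.75%), and no member was in Null (2.21%). The medians were −0.40 in Null, −0.31 in B, −0.25 in A, −0.33 in BB and −0.50 in AB, against 0.00, 0.04, 0.03, −0.02 and −0.01 over all genes.

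**Figure D5:**
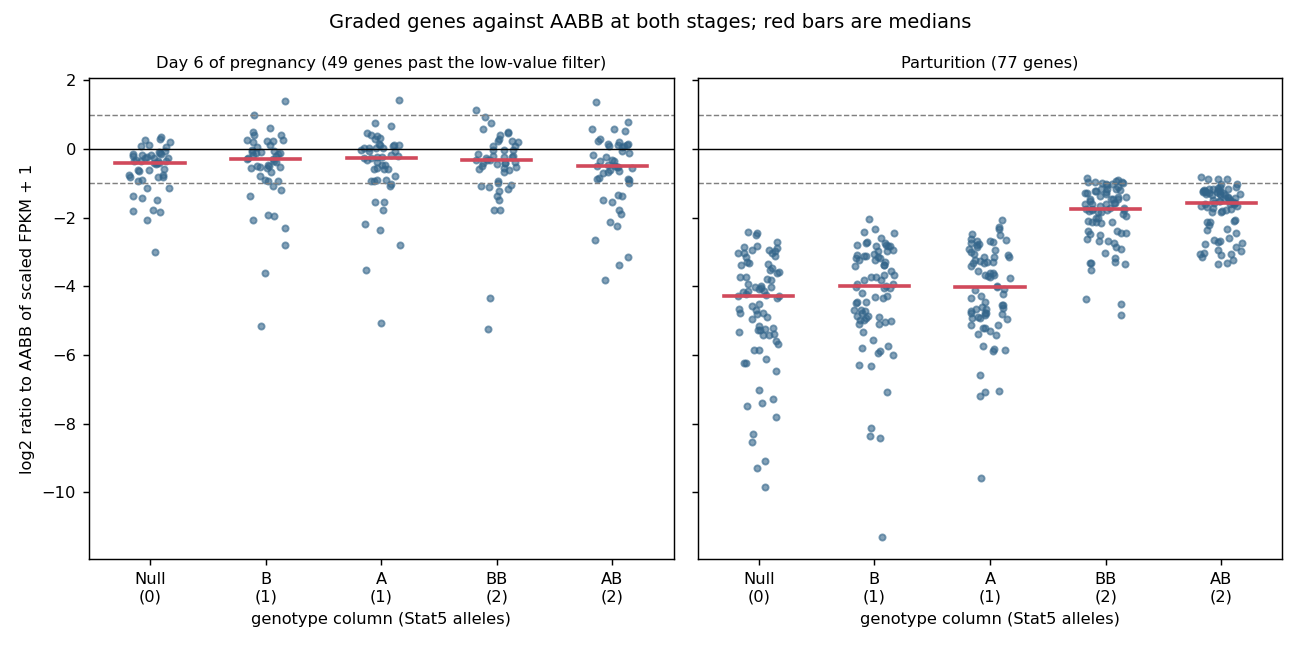
Each point is a member's log2 ratio to AABB (scaled FPKM + 1) in a genotype, with red bars at the medians and dashed lines at 2-fold. On day 6 the 49 genes past the filter have medians of −0.25 to −0.50 in all 5 genotypes. At parturition, where the values chose the genes, medians are −4.28 in Null, −3.98 in B, −4.01 in A, −1.75 in BB and −1.59 in AB.

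Among the 49 genes past the filter, Fabp3 had the lowest day 6 ratio to AABB in B, A and BB, Cidea in AB and Bcl2l15 in Null, where the log2 ratio was −3.00 for Bcl2l15, −1.80 for Fabp3 and −0.66 for Cidea. Fabp3 had 21.1 FPKM in Null, 1.33 in B, 1.48 in A, 1.06 in BB, 6.07 in AB and 81.7 in AABB, and Cidea had 210.2, 28.7, 30.6, 15.4, 21.3 and 357 FPKM. Brown adipocytes, which warm the body, express both genes. Of 7 brown adipocyte markers the uncoupling protein gene Ucp1 had 19.9, 8.06, 3.58, 1.93, 7.31 and 322 FPKM in the same columns, and the markers summed to 393, 120, 122, 108, 152 and 1326 FPKM. Skeletal muscle markers, at 7640 FPKM in AB against 161 in BB, also moved on day 6. Their part in the Fabp3 and Cidea values was not tested. Without both genes, the members summed to 568 FPKM in Null, 691 in B, 695 in A, 645 in BB, 595 in AB and 865 in AABB on day 6. Then 8 to 10 members per genotype were 2-fold lower than AABB, beside 2.09% to 5.53% of all genes.

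In all, 18 of the 49 were 2-fold lower than AABB on day 6 in at least 1 genotype. Over all genes only the shares per genotype are known, 2.09% to 5.53%. The share lower in at least 1 genotype, or in several, was not calculated, and all these comparisons use the same AABB column. Beside Fabp3 and Cidea, those lower in 4 or 5 genotypes were Bcl2l15, Slc28a3, Folr1, Fam20c, Fam110a, Fkbp11 and Ccdc64b. Ttc25 was lower in 3 genotypes, Pglyrp1, Myo5c and Slc38a3 in 2, and Cel, St6gal1, Cldn8, Fam160a2 and Tgm1 in 1. Slc28a3 had 2.05, 2.09, 2.98, 2.13, 0.693 and 10.6 FPKM in Null, B, A, BB, AB and AABB, Folr1 had 2.50, 2.35, 2.80, 5.24, 1.47 and 11.9 FPKM, and Fkbp11 had 8.21, 17.4, 21.6, 17.1, 11.5 and 40.2 FPKM. These 3 were highest in AABB, with BB and AB among the rest. Gjb6, which did not pass the filter, had 20.4 FPKM in AABB and 0.0553 to 0.857 in the other columns, with log2 ratios of −4.28 in Null and −4.12 in AB that lay below those of all 49 in the same genotype. Serp1 (69.7 to 89.7), Xdh (43.5 to 62.3) and Tmem165 (17.6 to 23.5) were level across genotypes, within 1.5-fold, and had no step on day 6. Dab2 had 10.3 FPKM in Null, 40.9 in B, 41.2 in A, 30.0 in BB, 34.1 in AB and 14.4 in AABB. On day 6 it was thus lower in AABB than in B, A, BB and AB, and at parturition it was highest in AABB. Beside it, fibroblast and matrix markers on day 6 were 2449 FPKM in Null, 7363 in B, 7144 in A, 10994 in BB, 9847 in AB and 2855 in AABB, and their part in Dab2 was not tested.

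Genes that met 1 of both conditions at parturition are the nearest to the members, and day 6 values can be set beside theirs. The 368 genes that met the upper condition only had day 6 medians of −0.08 in Null, −0.17 in B, −0.17 in A, −0.32 in BB and −0.37 in AB against AABB (363 compared). For the 36 that met the lower condition only the medians were −0.47, −0.49, −0.45, −0.51 and −0.27 (31 compared). The members lay between both groups in Null, B, A and BB, at −0.40, −0.31, −0.25 and −0.33, and below both in AB, at −0.50, and no test of a difference was possible.

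In the order of protein-coding genes along the chromosomes, no members were direct neighbours, and the nearest, Bhlha15 and Baiap2l1, lay 3 genes apart.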

How the data were processed

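The deposited values are FPKM per gene symbol in 2 tables, which the authors averaged over the samples of a genotype. In columns with 3 listed samples, 58.0% to 62.7% of values of at least 1 FPKM end in the repeating decimals that division by 3 leaves, and in columns with 2 samples 0.157% to 0.244% do. Per the submitters' processing notes CASAVA, TopHat and the build mm9 were used, and the FPKM program, annotation and filters are not given in the sources used here. Read depth is unknown, and steps of 1 read cannot be read from averages. Tests planned for single samples could not be run.

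The genes, and all lists, were chosen with earlier results of these data known. The task groups, the brown adipocyte list and the alternatives without Cidea and Fabp3, against Null alone and relative to luminal markers were set after seeing the values. Members were found on FPKM as deposited. For log2 ratios the 6 columns of a stage were scaled by the median ratio to their geometric mean over genes at 1 FPKM or more in all (11733 genes on day 6, factors 0.919 to 1.07, and 10864 at parturition, factors 0.799 to 1.13). A pseudocount of 1 was added, and genes at 1 FPKM or more in at least 2 columns were compared and counted at 2-fold. The calculation was tested on simulated data. Genes named are all members, the genes next to each threshold (1 of which is not reported here), Stat5a and Stat5b, and Ucp1, which was chosen after its values were seen. Reference coordinates are of GRCm38.p6, not mm9, and belong to the printed promoters only. Python 3.11.15, numpy 2.4.6, pandas 2.3.3 and matplotlib 3.10.9 were used.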

Additional observations from a re-analysis of the deposited data

How the results depend on the processing

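No paired analysis was possible because the tables hold 1 mean column per genotype, and fits without each replicate or with a replicate block were not run for the same reason. The number of members, 77, became 128 with scaled columns, 124 with a lower step of 1.5, 46 with one of 3, 137 with means in place of extremes, and 119 when the lower step was taken against Null alone (chosen after seeing the data). Of these sets, all but that with a lower step of 3 hold the 77. Without the filter, counts of members 2-fold lower than AABB on day 6 were out of all 77 in place of the 49. They were 22 in Null, 22 in B, 20 in A, 21 in BB and 25 in AB. With a filter of 5 FPKM, which fewer members pass, they were 6 in Null and 7 in BB. Day 6 medians were −0.46, −0.28, −0.22, −0.42 and −0.66 in Null, B, A, BB and AB without scaling and −0.44, −0.40, −0.26, −0.43 and −0.57 with a pseudocount of 0.1. At parturition they were −3.89, −3.61, −3.59, −1.45 and −1.35 without scaling and −5.02, −4.63, −4.65, −1.76 and −1.62 with a pseudocount of 0.1, and no median changed sign. With that pseudocount 8 members were 2-fold higher and 4 lower in A than in B, and 21 higher and 2 lower in B than in Null. Shares over all genes were not calculated under the changed settings, so these counts have no background beside them. The remaining 36 recalculated values were equal or within 1.5 times. The scaling was chosen because milk transcripts fill much of the AABB library. Depth limits are unknown, and members near 0 FPKM have uncertain ratios.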
